A study of Mus musculus with 7 samples.

Results

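The hnRNP and SR protein genes of the mouse oocyte were followed through meiotic maturation and under an RNA G-quadruplex (rG4) ligand. The genes were all entries of the deposited expression tables whose symbol starts with Hnrnp or Srsf, which gave 32 of 25908 entries, 21 hnRNP and 11 SR entries. The hnRNP entries are Hnrnpa0, Hnrnpa1, Hnrnpa1l2-ps2, Hnrnpa2b1, Hnrnpa3, Hnrnpab, Hnrnpc, Hnrnpd, Hnrnpdl, Hnrnpf, Hnrnph1, Hnrnph2, Hnrnph3, Hnrnpk, Hnrnpl, Hnrnpll, Hnrnpm, Hnrnpr, Hnrnpu, Hnrnpul1 and Hnrnpul2, and the SR entries are Srsf1 to Srsf7 and Srsf9 to Srsf12. No symbol occurred more than once among them.

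Heterogeneous nuclear ribonucleoproteins (hnRNPs) coat pre-mRNA, and many of them act in splicing as repressors, in export, in mRNA stability or in translation. SR proteins carry 1 or 2 RNA recognition motifs and a tail rich in arginine and serine, bind exonic enhancers and promote the use of splice sites, often against hnRNP A/B proteins. Many genes of both families regulate themselves by splicing their own transcript into forms that are degraded, and the fully grown oocyte is transcriptionally silent, so that during maturation its mRNA pool is shaped by translation, deadenylation and decay of stored transcripts.

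Polyadenylated RNA of mouse oocytes was measured by Smart-seq2 in 7 libraries of 10 oocytes each, all labelled as ovary oocytes. The GV group (germinal vesicle stage, 2 libraries) has the labels control and no treatment, the MII group with DMSO (metaphase II, 3 libraries) has the labels control and DMSO, the solvent, and the MII group with BYBX (2 libraries) has the labels treat and BYBX, an rG4-selective fluorescent ligand. Oocytes came from C57BL/6 females aged 4 weeks and were collected 44 h after PMSG, and culture to MII took 16 h. The study's methods and figures name DMSO for the GV oocytes too, whereas the labels do not. No mutant or transgene is carried by any group. The labels give no dose of BYBX, and legends of joint analyses with these libraries name 1 μM. The number of females behind each library is not given in the sources used here.

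Values are FPKM (fragments per kilobase of transcript, relative to sequencing depth), and the authors used ERCC spike-in RNA and the GV samples of each batch to set the scale of a library. The summed FPKM of a library was 489569 and 402113 in GV, 109732 to 127254 in MII with DMSO, and 246710 and 201482 in MII with BYBX. The number of reads behind these values is unknown. All 12 oocyte markers examined were listed above 0 in every library (summed FPKM 15692 and 12919 in GV, 2847 to 3609 with DMSO, 8174 and 6756 with BYBX). The 12 granulosa and cumulus markers summed to 19.1 and 10.6 FPKM in GV, 2.44 to 2.89 with DMSO and 5.07 and 4.42 with BYBX. Above 1 FPKM were 5 of them in each GV library, 1 in each with DMSO and 2 in each with BYBX. Inha was at 5.48 and 1.94 FPKM in GV and Nr5a2 at 4.43 and 3.24, while the cumulus marker Ptx3 was at 0 in all 7 libraries. The sums of the granulosa and cumulus markers moved in the order of the groups, and their part in the results was not tested. Markers of erythrocytes summed to at most 1.20 FPKM and those of leukocytes to at most 1.72. Every library holds the same number of oocytes, but lost oocytes and less RNA per oocyte cannot be told apart. The cDNA was primed with oligo-dT, so a change of the poly(A) tail and a change of mRNA amount cannot be told apart either.

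The study concerns rG4s, 4-stranded structures of guanine-rich RNA, so transcripts of the family were searched for the pattern of such structures. The pattern, 4 stretches of GGG or longer set apart by 1 to 7 bases, was read on the sense strand of the longest complete protein-coding GENCODE transcript of each gene, with no overlap between matches. It occurred in 10 of the 30 genes whose level allowed a test (33.3%) and in 1634 of 8742 tested genes with a transcript (18.7%), with median transcript lengths of 2800 and 2992 bases. A match describes the letters only, and the folding of these stretches was not measured in these files. The matches below show where the pattern lies in some of the transcripts that the comparisons below turn on. Capitals mark the runs of G, written as DNA, and positions are those of GRCm38, the assembly also called mm10.
Hnrnpa0, 5′ UTR, chr13:58128322-58128341, minus strand: GGGcGGGGGcaGGGcccGGG
Hnrnpa0, coding sequence, chr13:58127742-58127771, minus strand: GGGcggcGGGGGtgcgcGGGcggcccGGGG
Hnrnpa0, 3′ UTR, chr13:58127113-58127131, minus strand: GGGGGGGcGGGtGGGcGGG
Hnrnpa0, 3′ UTR, chr13:58127061-58127078, minus strand: GGGtGGGGGttGGGcGGG
Hnrnpf, 5′ UTR, chr6:117906881-117906905, plus strand: GGGaaGGGaaagtGGGctccccGGG
Hnrnpf, 5′ UTR, chr6:117906917-117906944, plus strand: GGGtgctcGGGGcgtGGGccgagcGGGG
Srsf5, 3′ UTR, chr12:80950076-80950100, plus strand: GGGGtGGGatttggaGGGGGttGGG
All 4 matches of Hnrnpa0, a gene of 1 exon, lie in that exon, and both matches of Hnrnpf lie in its first exon. The other genes with a match are Hnrnph3, Hnrnpm, Hnrnpr, Hnrnpul1, Hnrnpul2, Srsf6 and Srsf10, and Srsf12, whose level was too low to test. Srsf2, Srsf9 and Hnrnpl had no match in the transcript read, which says nothing about other isoforms.

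The GV oocyte held high levels of a few members and very low levels of others, and these levels are per kilobase of transcript. Hnrnpk (chr13:58391142-58403343), a KH-domain protein that binds C-rich RNA, was the most abundant at 359 and 277 FPKM. Hnrnpc, a core packaging protein that binds U tracts, was at 142 and 128 FPKM, and Hnrnpf (chr6:117900324-117925622), which binds G tracts, was at 150 and 117 FPKM. Srsf2 (chr11:116849901-116853094), an SR protein with 1 RNA recognition motif, was at 65.9 and 76.7 FPKM. Hnrnpa2b1, an A/B protein of mRNA transport and splicing, followed at 62.3 and 55.6 FPKM, and Srsf4 (chr4:131873617-131901706), a long SR protein with 2 such motifs, at 67.3 and 42.6 FPKM. In this order Hnrnpk lay above Hnrnpc, Hnrnpf above Srsf2 and Srsf2 above Hnrnpa2b1 in both libraries, whereas Hnrnpc overlapped with Hnrnpf, and Srsf4 with Srsf2, Hnrnpa2b1 and Srsf5 (57.3 and 51.9 FPKM). Of the 32 entries, Hnrnpl (0.871 and 1.13 FPKM), the processed pseudogene Hnrnpa1l2-ps2 (0.0183 and 0.0533) and Srsf12 (0 and 0.0295) were lowest. The pseudogene and Srsf12 stayed at or under 0.0553 FPKM in all 7 libraries and were not tested, which left 30 genes whose mean over the 3 group means was at least 1 FPKM.

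**Figure D1:**
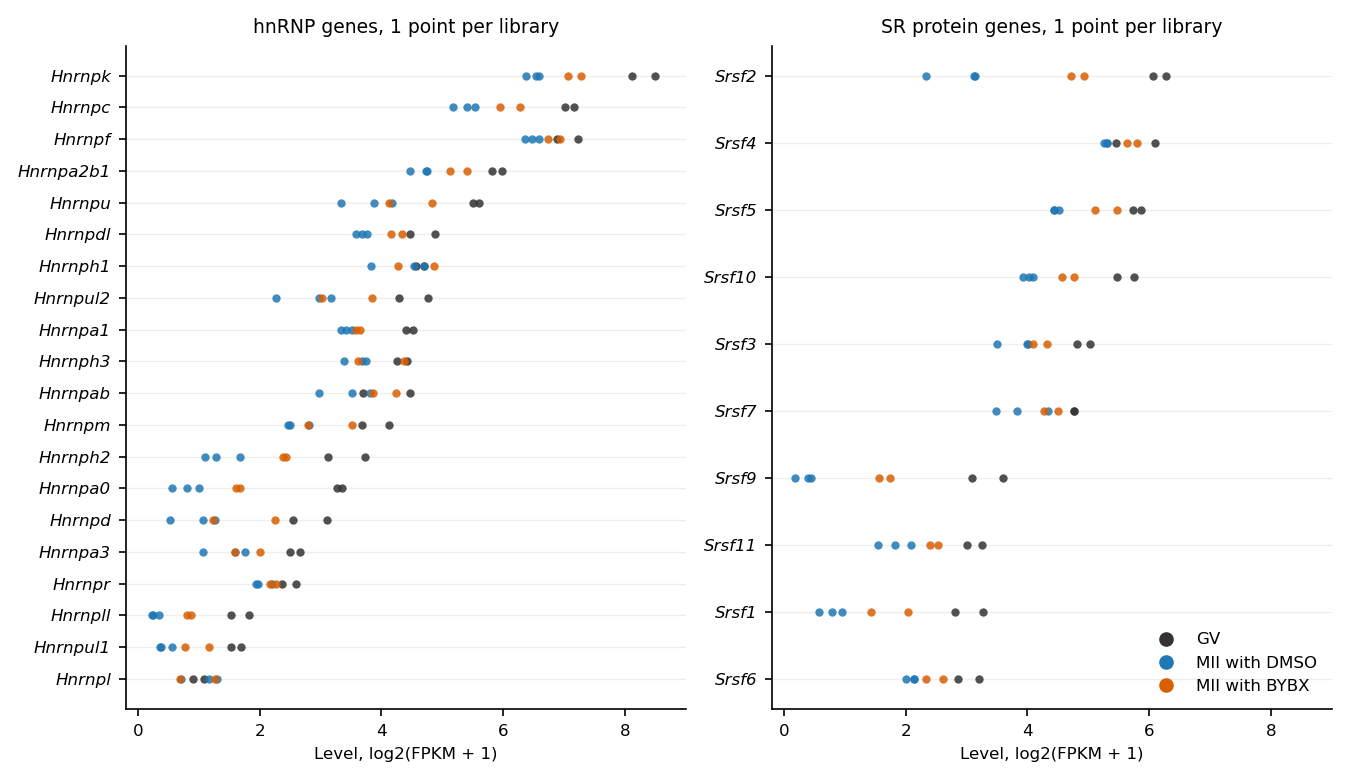
Level of the 30 tested hnRNP and SR protein genes in each library, as log2(FPKM + 1) on the horizontal axis, with 1 point per library and genes ordered by their mean in GV. For most genes the MII libraries with DMSO lie lowest, the GV libraries highest and the MII libraries with BYBX between them. Groups overlap in other genes, among them Hnrnpl, Hnrnph1 and Hnrnpab.

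As a family, the genes fell in level from GV to MII with DMSO and stood between these levels in MII with BYBX. Their summed FPKM was 1269 and 1109 in GV, 421, 458 and 488 in MII with DMSO, and 742 and 655 in MII with BYBX. The MII mean with DMSO was 38.3% of the GV mean, and that with BYBX 58.8%, with no overlap between the libraries of any pair of groups. The share of the family in the summed FPKM of its library, which does not depend on the spike-in, went the other way. It was 0.259% and 0.276% in GV, 0.371% to 0.384% in MII with DMSO, and 0.301% and 0.325% in MII with BYBX. The family thus lost less than the sum of all entries between GV and MII with DMSO. SR genes made up 26.1% and 27.1% of the family's sum in GV, 24.4% to 25.9% with DMSO and 27.2% and 28.2% with BYBX. Without Hnrnpk, Hnrnpc and Hnrnpf the sum was 39.3% of GV with DMSO and 61.8% with BYBX, close to the values with them.

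The first comparison asked how the genes change when oocytes mature from GV to MII in the solvent. On log2(FPKM + 1), 25 of the 30 genes were lower in MII with DMSO and none was higher at an adjusted p under 0.05 (limma over all 9202 tested entries, Benjamini-Hochberg), and 5 did not pass. At an unadjusted p under 0.05 the counts were also 25 lower and 0 higher. Hnrnpll and Hnrnpul1, among these 25, passed the filter on level through their GV values. Of all tested entries 88.3% were called lower and 0.272% higher, so the share of called genes was near that of the whole transcriptome. The median log2 difference was -1.28 over the 30 genes and -1.83 over all tested entries. The 20 hnRNP genes had a median of -1.21 with 16 called, and the 10 SR genes a median of -1.32 with 9 called. In 27 of the 30 genes every MII library with DMSO lay below both GV libraries, as in 92.5% of all tested entries. These p-values measure the spread between libraries, since nothing states that the libraries of a group came from separate animals.

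The direction of most genes depended on how the libraries were scaled. Bringing every library to the same total FPKM moved the median of all tested entries to -0.56, and centring every library on its median moved it to 0.47. With equal totals 14 of the 30 genes were called higher and 5 lower (23.3% and 49.5% of all entries), and the median of the 30 was 0.33. With median centring 22 were called higher and 2 lower (48.8% and 26.7% of all entries), with a median of 1.02. The median of the 30 genes lay above that of all entries under each scaling. Below, a fall is on the spike-in scale of the deposited values unless another scale is named.

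Srsf2, Srsf9 and Hnrnpa0 had the lowest log2 differences. Srsf2, required for constitutive splicing and known for binding C- and G-rich exonic enhancers, fell from 65.9 and 76.7 FPKM in GV to 4.05, 7.77 and 7.72 FPKM in MII with DMSO. Both GV libraries lay far above the 3 MII libraries, a log2 difference of -3.31 ± 0.29 (SE, adjusted p = 9.2e-08, limma). Srsf9 (chr5:115327177-115333080), a small SR protein close to Srsf1, fell from 7.53 and 11.05 FPKM to 0.141, 0.322 and 0.357, a log2 difference of -2.997 ± 0.21 (adjusted p = 1.4e-08, limma). The ratio of its means was 34.0-fold, larger than that of Srsf2 (10.95-fold), because adding 1 FPKM compresses the log2 difference of low values. Hnrnpa0 (chr13:58125879-58128556), a single-exon A/B protein that binds AU-rich RNA, fell from 8.63 and 9.18 FPKM to 0.752, 1.02 and 0.473, a log2 difference of -2.51 ± 0.21 (adjusted p = 6.2e-08, limma). These 3 genes had lower values in MII with DMSO under all 3 scalings: with equal totals the log2 differences were -1.55, -1.97 and -1.25, and with median centring -1.005, -0.69 and -0.21, the last not past the test (adjusted p = 0.37, limma). Hnrnpa0 carries the 4 G-run patterns printed above, and Srsf2 and Srsf9 none.

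Among the other SR genes with 2 RNA recognition motifs, Srsf1, the best-studied splicing activator of the family, was at 6.04 and 8.61 FPKM in GV and at 0.497, 0.942 and 0.725 in MII with DMSO. All MII values lay below 1 FPKM, a 10.2-fold difference of the means and a log2 difference of -2.26, which was -1.04 with equal totals and 0.04 with median centring. Srsf5, an SR protein that shuttles between nucleus and cytoplasm, went from 57.3 and 51.9 FPKM to 20.7, 20.7 and 21.98 (2.59-fold lower), and Srsf6 from 8.22 and 6.25 to 3.41, 3.39 and 3.01 (2.21-fold lower). Both fell on the deposited scale, and both were called higher with equal totals (0.50 and 0.63 on the log2 scale). Srsf4 was the exception. It was at 67.3 and 42.6 FPKM in GV and at 37.2, 38.5 and 38.4 in MII with DMSO, which lay below both GV libraries but, with the GV libraries this far apart, did not pass the test (log2 difference -0.48 ± 0.26, 95% interval -1.05 to 0.08, adjusted p = 0.097, limma). Without GV replicate 2 Srsf4 was called lower, at -0.81. With equal totals and with median centring Srsf4 was called higher, by 1.37 and 1.82.

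The SR genes with 1 RNA recognition motif other than Srsf2 fell less than it. Srsf10, known as a repressor that depends on dephosphorylation, fell from 53.0 and 43.2 FPKM to 14.1 to 15.99, and Srsf11 from 8.49 and 7.07 to 1.93 to 3.24 FPKM. Srsf3 and Srsf7, adaptors for mRNA export, fell from 31.5 and 27.0 to 10.3 to 15.2 FPKM and from 26.2 and 26.2 to 10.2 to 19.2 FPKM. The log2 differences of these 4 genes, from -1.60 to -0.88, were all past the test, and all 4 were above 0 with equal totals (0.22 to 0.91) and with median centring (0.70 to 1.42). The call of Srsf7 was lost without GV replicate 1.

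**Figure D2:**
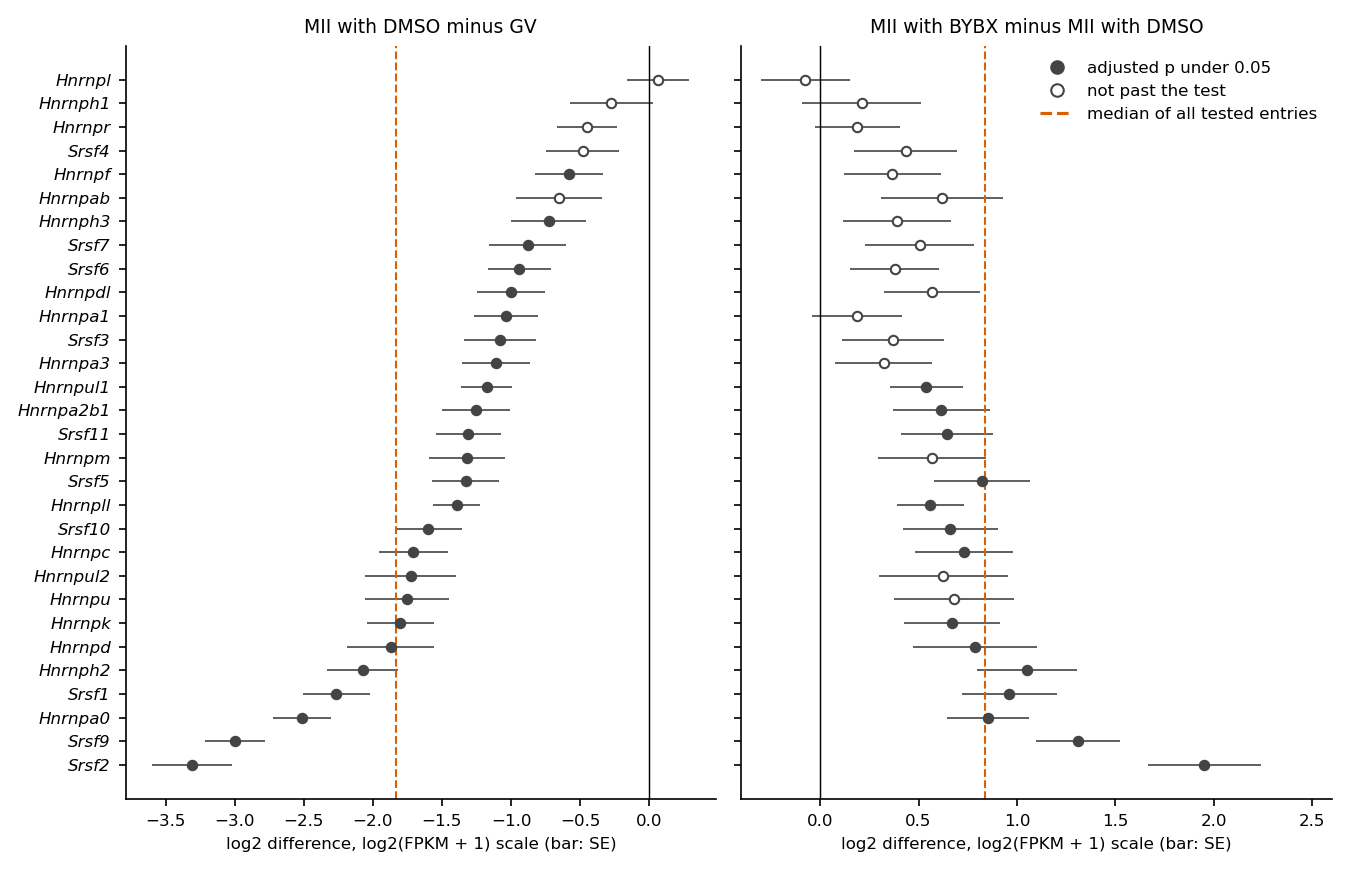
Log2 difference of each tested gene on the log2(FPKM + 1) scale of the deposited values, for MII with DMSO against GV on the left and MII with BYBX against MII with DMSO on the right, with bars for the SE and filled points for an adjusted p under 0.05. Srsf2 lies lowest on the left at -3.31 and highest on the right at 1.95, and the dashed line marks the median of all tested entries (-1.83 and 0.84).

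In the hnRNP A/B group, 6 of 7 genes fell from GV to MII with DMSO. Hnrnpd, also called AUF1, a binder of AU-rich elements, was at 4.84 and 7.66 FPKM in GV and at 0.448, 1.42 and 1.10 with DMSO (6.33-fold lower). Hnrnpa1, the classical antagonist of SR proteins, fell from 21.8 and 20.2 to 9.13, 10.5 and 9.68 FPKM (2.16-fold lower), and Hnrnpa2b1 from 62.3 and 55.6 to 21.2, 25.4 and 26.0 FPKM (2.44-fold lower). Hnrnpa3 and Hnrnpdl were 2.72-fold and 2.11-fold lower. Except for Hnrnpa0 (-1.25 with equal totals, -0.21 with median centring) and Hnrnpd (-0.61 and 0.43), these genes had positive differences under both other scalings. Hnrnpab, the member of this group not past the test, was at 12.0 and 21.2 FPKM in GV and at 6.90, 10.4 and 13.1 with DMSO, so that the groups overlapped (log2 difference -0.65, adjusted p = 0.062, limma); it was called lower without GV replicate 1 and without DMSO replicate 3. Hnrnpa1 and Hnrnpa3 have processed pseudogenes of near-identical sequence, so their values could include or lack reads of those copies.

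The abundant Hnrnpk and Hnrnpc fell with the bulk of the transcriptome. Hnrnpk went from 359 and 277 FPKM to 91.8, 82.4 and 95.8, a log2 difference of -1.80 ± 0.24 (adjusted p = 9.1e-06, limma). Hnrnpc went from 142 and 128 to 35.2, 41.5 and 45.4 FPKM, a log2 difference of -1.71 ± 0.25 (adjusted p = 1.9e-05, limma). In both genes every MII library lay far below both GV libraries, and with equal totals their differences were near 0 (0.08 and 0.15).

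The F/H group, which binds G tracts, split into genes with small and large differences. Hnrnpf was at 150 and 117 FPKM in GV and at 87.7, 80.9 and 95.4 in MII with DMSO, which lay below both GV libraries but by a 1.51-fold ratio of the means (log2 difference -0.58 ± 0.25, adjusted p = 0.038, limma); the call was lost without GV replicate 1, without DMSO replicate 1 and without DMSO replicate 2. Hnrnph1 was at 22.7 and 25.0 FPKM in GV and at 13.3, 22.2 and 25.0 with DMSO, overlapping groups with a log2 difference of -0.27 (95% interval -0.92 to 0.38, adjusted p = 0.40, limma). Its X-linked paralogue Hnrnph2 fell from 12.3 and 7.71 to 2.21, 1.44 and 1.14 FPKM (6.27-fold lower), and Hnrnph3 from 20.3 and 18.1 to 9.48, 12.5 and 11.8 FPKM (1.71-fold lower), a call that was lost without either GV replicate and without DMSO replicate 1. With equal totals Hnrnpf, Hnrnph1 and Hnrnph3 were called higher, by 1.29, 1.53 and 1.04, whereas Hnrnph2 was at -0.61, and with median centring Hnrnph2 too was above 0 (0.23). Hnrnph1 and Hnrnph2 are close in sequence, and reads could be divided between them in either direction.

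The remaining hnRNP genes have distinct roles and levels. Hnrnpl, a CA-repeat binder, was the only member with a log2 difference above 0, at 0.06 (95% interval -0.42 to 0.55). It was at 0.871 and 1.13 FPKM in GV and at 0.645, 1.45 and 1.25 with DMSO, near the filter on low values, and its difference was -0.027 without GV replicate 1 and -0.052 without DMSO replicate 2. Its paralogue Hnrnpll fell from 1.88 and 2.54 to 0.187, 0.276 and 0.180 FPKM (10.3-fold lower). Hnrnpr, known from mRNA transport in neurons, was at 5.08 and 4.17 FPKM in GV and at 2.83, 3.60 and 2.91 with DMSO, lower in every library but not past the test (log2 difference -0.45, adjusted p = 0.063, limma), and called lower without GV replicate 2. Hnrnpm, a splicing repressor, was 2.80-fold lower. The scaffold-associated Hnrnpu fell from 44.4 and 47.8 to 9.12, 17.2 and 13.8 FPKM, and its relatives Hnrnpul1 and Hnrnpul2 were 5.81-fold and 3.60-fold lower. All these genes had positive differences with median centring, and with equal totals Hnrnpll (-0.63), Hnrnpul1 (-0.31) and Hnrnpul2 (-0.01) stayed below 0. Hnrnpll (means of 0.214 FPKM with DMSO and 0.789 with BYBX) and Hnrnpul1 (0.354 and 0.983) passed the filter on level through GV alone. The filter itself thus favoured a fall of these genes from GV.

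Ratios between members within a library do not depend on how the library was scaled, and they moved between the groups. The following pairs were chosen after the values were seen and carry no test. Hnrnpf stood to Hnrnpk at 0.416 and 0.422 in GV, at 0.956, 0.982 and 0.996 in MII with DMSO, and at 0.911 and 0.689 with BYBX. Srsf4 stood to Srsf2 at 1.02 and 0.555 in GV, at 9.19, 4.95 and 4.98 with DMSO, and at 1.87 and 1.94 with BYBX. In these 2 pairs the BYBX libraries lay between the other groups without overlap. Hnrnph1 stood to Hnrnph2 at 1.84 and 3.24 in GV, at 6.02, 15.4 and 21.97 with DMSO, and at 6.68 and 4.18 with BYBX, with overlap between the MII groups. Hnrnpf and Hnrnpk made up 11.2% and 26.6% of the family's sum in GV, 19.3% and 19.8% with DMSO, and 16.3% and 20.7% with BYBX (means of the libraries). Srsf2 made up 6.06%, 1.41% and 3.89%, and Srsf4 4.57%, 8.37% and 7.43%.

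**Figure D3:**
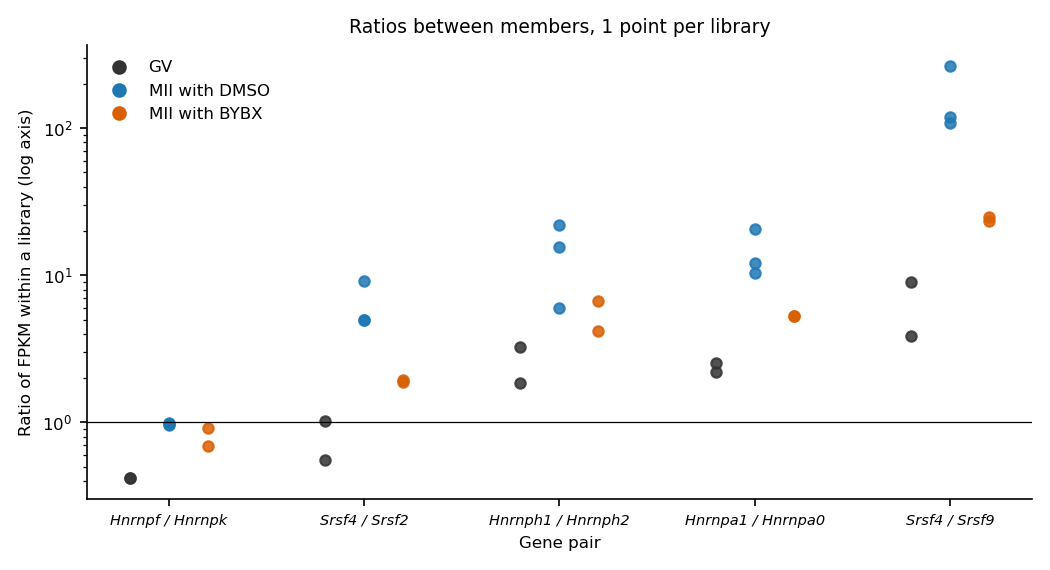
Ratio of FPKM between 2 members within each library, on a log axis, with 1 point per library. Srsf4 to Srsf2 lies at 0.555 and 1.02 in GV, 4.95 to 9.19 in MII with DMSO and 1.87 and 1.94 in MII with BYBX, and the ratio of Hnrnpf to Hnrnpk rises from 0.42 in GV to at least 0.956 with DMSO.

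The second comparison asked how MII oocytes cultured with BYBX differ from those with DMSO. The paper reports that fewer oocytes released a polar body with BYBX, and that those reaching MII had abnormal spindles. It does not state whether the sequenced oocytes were picked by their polar body. An effect of the ligand on RNA and incomplete maturation therefore cannot be told apart here. Of the 30 genes 14 were higher with BYBX and none was lower at an adjusted p under 0.05 (limma), while 65.2% of all tested entries were called higher and 0.0326% lower. At an unadjusted p under 0.05 the counts of these genes were 16 higher and 0 lower. The median log2 difference was 0.59 over the 30 genes and 0.84 over all tested entries. The called genes were Hnrnpa0, Hnrnpa2b1, Hnrnpc, Hnrnpd, Hnrnph2, Hnrnpk, Hnrnpll and Hnrnpul1 among 20 hnRNP genes (median 0.57), and Srsf1, Srsf2, Srsf5, Srsf9, Srsf10 and Srsf11 among 10 SR genes (median 0.65). In 20 of the 30 genes both BYBX libraries lay above the 3 DMSO libraries, against 79.0% of all entries. The count depended on single libraries, at 8 without DMSO replicate 1 and 9 without DMSO replicate 2. Across fits that each left out 1 library, the median of the 30 genes was 0.45 to 0.70. Leaving out a library lowers the power for every entry, and the share of all entries called in these fits is not given here. With equal totals 2 genes were called higher and 3 lower (39.9% and 8.22% of all entries), and with median centring 1 and 21 (18.4% and 43.9%), where the medians of all tested entries were 0.34 and -0.44.

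Srsf2 and Srsf9 showed the highest differences with BYBX. Srsf2 was at 29.4 and 25.1 FPKM with BYBX against 4.05 to 7.77 with DMSO, a 4.18-fold ratio of the means with no overlap. Its log2 difference of 1.95 ± 0.29 (adjusted p = 5.1e-05, limma) was also above 0 and past the test with equal totals (1.16, adjusted p = 0.0046, limma) and with median centring (0.67, adjusted p = 0.047, limma). Srsf9 was at 2.36 and 1.95 FPKM against 0.141 to 0.357, a 7.88-fold ratio of the means. Its log2 difference was 1.31 ± 0.21 (adjusted p = 0.00013, limma), 1.12 with equal totals and 0.03 with median centring, the last not past the test. Hnrnph2 came next at 4.20 and 4.39 FPKM against 1.14 to 2.21 (log2 difference 1.05 ± 0.26, adjusted p = 0.0027, limma), which was 0.45 with equal totals and -0.23 with median centring. Of the genes printed with G-run patterns, Hnrnpa0 was at 2.07 and 2.19 FPKM against 0.473 to 1.02 (log2 difference 0.85, adjusted p = 0.0029, limma), with -0.42 under median centring.

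The abundant hnRNP genes rose by less. Hnrnpk was at 133 and 154 FPKM with BYBX against 82.4 to 95.8 with DMSO (log2 difference 0.67, adjusted p = 0.028, limma), Hnrnpc at 76.2 and 60.4 against 35.2 to 45.4 (0.73, adjusted p = 0.020, limma), and Hnrnpa2b1 at 41.6 and 33.8 against 21.2 to 26.0 (0.62, adjusted p = 0.042, limma). In these 3 genes both BYBX libraries lay above every DMSO library and below both GV libraries. Their differences were below 0 with equal totals (-0.22, -0.15 and -0.25) and with median centring (-0.61, -0.55 and -0.66). Hnrnpf was at 122 and 106 FPKM against 80.9 to 95.4, not past the test (0.37 ± 0.25), and Srsf4 at 54.9 and 48.8 against 37.2 to 38.5, not past it either (0.44 ± 0.26).

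The lowest differences with BYBX were those of Hnrnpl, Hnrnpa1 and Hnrnpr. Hnrnpl was at 1.42 and 0.619 FPKM against 0.645 to 1.45 (log2 difference -0.08, 95% interval -0.56 to 0.41), with the BYBX libraries at both ends of the range. Hnrnpa1 was at 10.99 and 11.5 FPKM, just above the 9.13 to 10.5 with DMSO (0.19, 95% interval -0.31 to 0.68). Hnrnpr was at 3.83 and 3.52 FPKM against 2.83 to 3.60 (0.19, 95% interval -0.28 to 0.66). With equal totals Hnrnpa1, Hnrnpf and Hnrnpr were the 3 genes called lower with BYBX, at -0.65, -0.52 and -0.54. In 9 of the 30 genes the 2 BYBX libraries differed by 1.5-fold or more, BYBX replicate 1 being the higher in each. Replicate 2 lay within the range with DMSO in 6 of them (Hnrnpd, Hnrnph1, Hnrnph3, Hnrnpm, Hnrnpu and Hnrnpul2), above it in Hnrnpul1 and Srsf1, and below it in Hnrnpl. Hnrnpd, for example, was at 3.79 and 1.35 FPKM against 0.448 to 1.42. The summed FPKM of the whole library was also higher in BYBX replicate 1 (246710) than in replicate 2 (201482). The share of all tested entries with replicates this far apart is not given here.

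The third comparison set MII with BYBX against GV, and it shares its libraries with the other 2. Of the 30 genes 19 were lower and none higher (limma, adjusted p under 0.05), against 69.2% and 0.315% of all tested entries. At an unadjusted p under 0.05 the counts of these genes were 20 lower and 0 higher. Hnrnpll and Hnrnpul1, among the 19, passed the filter on level through their GV values. The median log2 difference was -0.73, and -0.99 over all entries. The count depended on single libraries here too, and across fits that each left out 1 library the median of the 30 genes was -0.83 to -0.58. With equal totals Srsf9 was lower and Hnrnpf and Srsf4 were higher (13.3% and 5.3% of all entries called), and with median centring none was lower (2 at an unadjusted p under 0.05, limma) and 6 were higher (13.6% and 15.2%), so that the medians of the 30 turned to 0.12 and 0.30. Srsf9 (-1.69), Hnrnpa0 (-1.66) and Srsf2 (-1.36) had the lowest values, as in MII with DMSO, and stayed below 0 under both other scalings. The 11 genes not past the test included Hnrnpf (-0.22), Srsf4 (-0.05), Hnrnph1 (-0.06), Hnrnpab (-0.03) and Hnrnpl (-0.01). Srsf5, at 43.3 and 33.4 FPKM with BYBX and 57.3 and 51.9 in GV, was at -0.51 (95% interval -1.08 to 0.07), Srsf7, at 21.8 and 18.3 against 26.2 in both GV libraries, at -0.38 (95% interval -1.03 to 0.28), and Hnrnpdl, at 19.1 and 16.8 against 28.5 and 21.1, at -0.43 (95% interval -1.01 to 0.15). The other 3 were Hnrnph3, Hnrnpr and Srsf6.

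**Figure D4:**
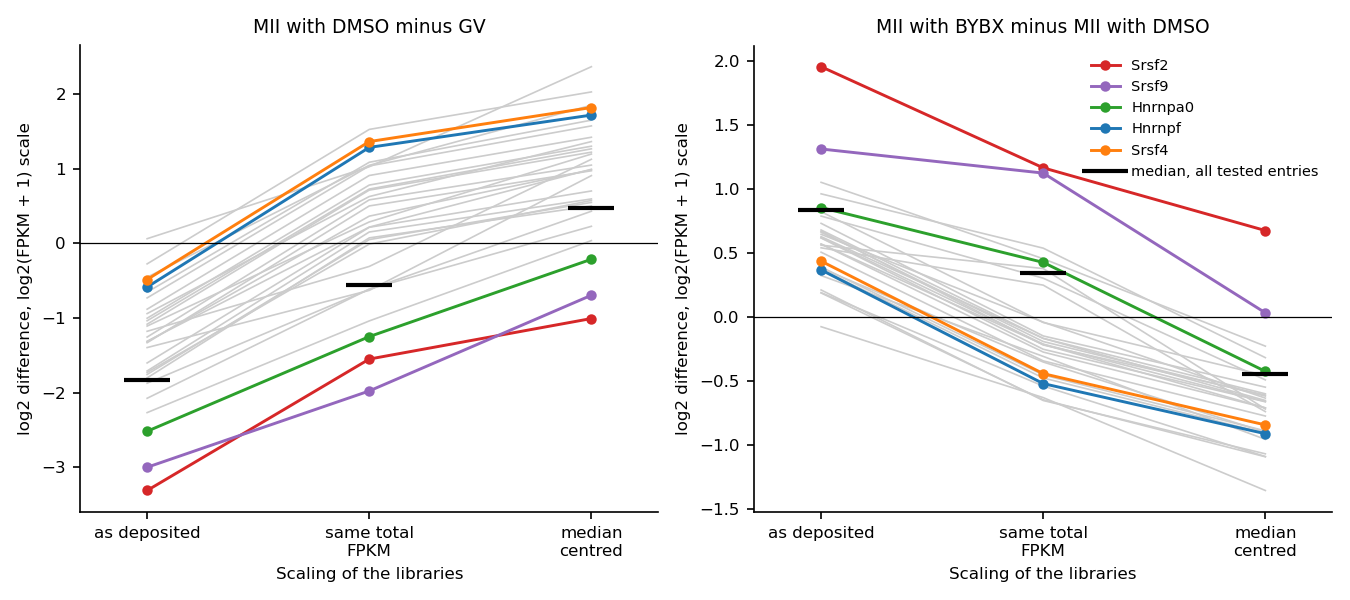
Log2 difference of the 30 genes under 3 scalings of the libraries, for MII with DMSO against GV on the left and MII with BYBX against MII with DMSO on the right, with a line per gene and a black bar for the median of all tested entries. On the left Srsf2, Srsf9 and Hnrnpa0 stay below 0 under all 3 scalings while Hnrnpf and Srsf4 cross from -0.58 and -0.48 to 1.72 and 1.82, and on the right Srsf2 and Srsf9 stay above 0, Srsf9 only by 0.03 when median centred.

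The sequence patterns occurred in genes with small and with large differences. The 10 tested genes with a G-run pattern had a median log2 difference from GV to MII with DMSO of -1.25 and the 20 without one of -1.28, and with BYBX against DMSO the medians were 0.55 and 0.62. These are descriptions with no test. A second pattern, the cytoplasmic polyadenylation element, is bound by CPEB and regulates the poly(A) tail of stored oocyte mRNAs. It was searched as TTTTAT or TTTTAAT on the sense strand of the last 200 bases of each transcript, with overlaps counted, and was present in 10 of 30 genes (33.3%) and in 2623 of 8742 tested genes. The medians from GV to MII with DMSO were -1.18 with the element and -1.28 without it. Srsf4, one of the genes with a small difference, held 3 matches, more than any other tested gene of the family, and Hnrnph1 held 1. Hnrnpl, Hnrnpr and Hnrnpab, which also did not pass the test from GV to MII with DMSO, held none. A match of Srsf4 and that of Hnrnph1 are shown with the element in capitals.
Srsf4, 3′ UTR, chr4:131901584-131901613, plus strand: gtgattatattgTTTTATattaaaaggaaa
Hnrnph1, 3′ UTR, chr11:50386335-50386364, plus strand: aaagctctttttTTTTATttttaagttaat
The element was also present in Srsf1, which was 10.2-fold lower with DMSO, and in Hnrnpll, which held 2 matches and passed the filter on level through its GV values.

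A companion list of 84 splicing genes outside the 2 name prefixes (hnRNP proteins under other symbols, SR-related proteins, kinases and importers of SR and hnRNP proteins, and other splicing regulators) was examined beside the family. Of these 81 were listed and 65 tested. From GV to MII with DMSO 53 of the 65 were lower (median -1.43; 88.3% of all tested entries), with BYBX against DMSO 36 were higher (median 0.69; 65.2% of all tested entries), and with BYBX against GV 33 were lower and 1, Scaf1, higher (median -0.79; 69.2% and 0.315% of all tested entries). Clk4 and Syncrip, called lower in both comparisons against GV, reached the level filter only because of their GV values. The mean of Clk4 was 4.90 FPKM at that stage, 0.0969 after DMSO and 0.794 after BYBX. For Syncrip the means were 2.99, 0.199 and 0.978 FPKM in the same order. A fall of both genes from GV was thus favoured by the filter. The directions in the companion list too depended on the scaling. In MII with DMSO against GV 21 were higher and 19 lower with equal totals (23.3% and 49.5% of all tested entries), and 38 and 12 with median centring (48.8% and 26.7%). With BYBX against DMSO 13 were higher and 7 lower with equal totals (39.9% and 8.22% of all tested entries), and 5 and 32 with median centring (18.4% and 43.9%). The list held 11 tested kinases and importers, which phosphorylate SR proteins or carry SR or hnRNP proteins into the nucleus. Of these 11, 9 were lower in MII with DMSO, Clk4 among them. On the same deposited scale 7 of the 11 were higher with BYBX. With median centring 7 were higher and 2 lower in MII with DMSO, and 7 were lower with BYBX. With equal totals 4 were higher and 4 lower in MII with DMSO, and 1 was higher and 1 lower with BYBX. Rbmxl1, a retrogene relative of the hnRNP G gene Rbmx, went from 41.2 and 35.9 FPKM in GV to 1.09, 0.838 and 1.02 with DMSO and 10.3 and 13.3 with BYBX. It had the lowest log2 difference from GV to MII with DMSO in that list, -4.32 ± 0.23 (adjusted p = 1.1e-09, limma), and the highest with BYBX, 2.68 ± 0.23 (adjusted p = 4.6e-07, limma), and kept both directions under all 3 scalings. Nono, a paraspeckle protein, went from 124 and 74.7 FPKM to 3.95 to 5.41 and then 20.6 and 26.5, Rbm5 from 15.9 and 11.7 to 0.131 to 0.372 and then 4.41 and 6.14, and Matr3, a nuclear matrix protein, from 110 and 71.8 to 4.95 to 7.88 and then 18.8 and 24.5. All 3 kept their directions under all 3 scalings, but with median centring Matr3 did not pass with BYBX against DMSO (0.33, adjusted p = 0.27, limma). At the other end, Srrm1, a coactivator of SR-dependent splicing, was at 17.4 and 18.3 FPKM in GV, 20.3 to 27.9 with DMSO and 32.6 and 19.2 with BYBX, Scaf1 at 1.67 and 1.001, 1.62 to 2.74, and 5.12 and 1.69, Celf2 at 12.0 and 13.8, 7.41 to 11.6, and 9.36 and 8.43, and Khsrp at 21.2 and 25.6, 11.3 to 18.7, and 17.7 and 11.5. From GV to MII with DMSO, Khsrp was called lower (-0.64, adjusted p = 0.044, limma) and Srrm1, Scaf1 and Celf2 did not pass on the deposited scale, whereas all 4 were called higher under both other scalings. With BYBX against DMSO, Celf2 (-0.12) and Khsrp (-0.026) had the lowest differences of the list and did not pass on the deposited scale. Both were called lower with equal totals (-0.95 and -0.88) and with median centring (-1.40 and -1.30). Against GV the rise of Scaf1 was 0.81 (adjusted p = 0.047, limma), with the 2 BYBX libraries 3.03-fold apart.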

How the data were processed

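The authors trimmed reads (Trim Galore 0.6.7), aligned them to mm10 (HISAT2 2.2.1), estimated FPKM with Cufflinks 2.2.1 and deposited 1 FPKM table per library, scaled by ERCC spike-in RNA and by the GV samples of each batch. Scaling factors are not given in the sources used here, and Cufflinks keeps no whole reads, so no counting interval is given. Each table lists 25912 entries; 4 with a missing value were left out. An FPKM value sums the isoforms of a gene, including those that are degraded.

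Values were compared as log2(FPKM + 1) with limma 3.58.1 (R 4.3.3; trend; 7 libraries in 1 model of 3 group means, 4 residual degrees of freedom) on the 9202 entries that averaged 1 FPKM or more over the group means, at a Benjamini-Hochberg adjusted p under 0.05. This step was tested on simulated data with 200 changed entries, fewer than were called here. It called 41% of 2-fold changes for BYBX against DMSO and 24% against GV, and 85% and 83% of 4-fold changes. No change between GV and MII with DMSO was simulated. These rates hold for the simulated setting and were not measured for the fits above. A gene not past the test may still have changed. GENCODE vM21 on GRCm38 gave positions and transcripts (8742 of 9154 tested symbols, 95.5%). Some matching stretches and 1 gene of the companion list are not reported here. Members and lists were chosen with earlier results of these data known. Values per library are given for the 6 genes of highest GV level, the 3 highest and lowest differences per comparison, and, for the 2 comparisons in which most genes were called, genes not past the test (at most 6), plus other members. From the companion list the 2 highest and 2 lowest per comparison are named. The GV and MII replicate numbers were not taken as pairs. Alternatives were adding 0.1 in place of 1, a filter at 5 FPKM, no filter, equal totals, median centring, fits of 2 groups, no trend, the replicate block and leaving out each library. Python 3.11.15, numpy 2.4.6, pandas 2.3.3 and matplotlib 3.10.9 were used.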

Additional observations from a re-analysis of the deposited data

How the results depend on the processing

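The spike-in scale carries the direction of most values, and 4 residual degrees of freedom and unknown read depth limit the precision. With equal totals, MII with DMSO against GV gave 5 lower and 14 higher with a median of 0.33 (companion list 0.21), and the sign turned for 20 of 30 genes, among them Hnrnpa2b1 (0.58), Hnrnpab (1.09), Hnrnpc (0.15), Hnrnpf (1.29), Hnrnph1 (1.53), Hnrnpk (0.075), Hnrnpr (1.05) and Srsf4 (1.37). With equal totals, BYBX against DMSO gave 3 lower and 2 higher with a median of -0.21, and the sign turned for 21 of 30 genes, among them Hnrnpa1 (-0.65), Hnrnpa2b1 (-0.25), Hnrnpc (-0.15), Hnrnpf (-0.52), Hnrnpk (-0.22), Hnrnpr (-0.54) and Srsf4 (-0.44). With equal totals, BYBX against GV gave 1 lower and 2 higher with a median of 0.12 (companion list 0.10), and the sign turned for 18 of 30 genes, among them Hnrnpa2b1 (0.33), Hnrnpab (0.88), Hnrnpc (0.0055), Hnrnpdl (0.51), Hnrnpf (0.77), Hnrnph1 (0.88), Hnrnpl (0.40), Srsf4 (0.92), Srsf5 (0.46) and Srsf7 (0.57). With median centring, MII with DMSO against GV gave 2 lower and 22 higher with a median of 1.02 (companion list 0.87), and the sign turned for 26 of 30 genes, among them Hnrnpa2b1 (1.05), Hnrnpab (1.65), Hnrnpc (0.60), Hnrnpf (1.72), Hnrnph1 (2.03), Hnrnpk (0.50), Hnrnpr (1.85) and Srsf4 (1.82). With median centring, BYBX against DMSO gave 21 lower and 1 higher with a median of -0.69 (companion list -0.59), and the sign turned for 27 of 30 genes, among them Hnrnpa1 (-1.09), Hnrnpa2b1 (-0.66), Hnrnpc (-0.55), Hnrnpf (-0.91), Hnrnph2 (-0.23), Hnrnpk (-0.61), Hnrnpr (-1.09) and Srsf4 (-0.84). With median centring, BYBX against GV gave 0 lower (2 unadjusted) and 6 higher with a median of 0.30 (companion list 0.23), and the sign turned for 22 of 30 genes, among them Hnrnpa2b1 (0.39), Hnrnpab (0.99), Hnrnpc (0.049), Hnrnpdl (0.59), Hnrnpf (0.81), Hnrnph1 (0.96), Hnrnpl (1.01), Srsf4 (0.98), Srsf5 (0.52) and Srsf7 (0.65). A filter at 5 FPKM left 5508 entries and fewer genes of the family to test. With it, 17 genes were lower in MII with DMSO, 7 were higher with BYBX against DMSO and 10 were lower against GV. Of the called genes that were still tested, only Hnrnpa2b1 lost a call, with BYBX against GV. Without a library, genes called lower in MII with DMSO numbered 23 to 26, genes called higher with BYBX 6 to 14, and genes called lower with BYBX against GV 9 to 18. A fit without a library has less power for every entry, and the share of all entries called in such fits is not given here. Signs without a library were followed only for the genes picked by rule in each comparison, and the signs of other members are not given. Among the genes picked, Hnrnpl changed sign (-0.052 to 0.24 in MII with DMSO, -0.37 to 0.21 with BYBX against DMSO, and -0.30 to 0.28, BYBX against GV). For BYBX against GV, Hnrnpab (-0.42 to 0.35), Hnrnph1 (-0.35 to 0.23) and Srsf4 (-0.37 to 0.28) did so too, and none of these differences was past the test. With the replicate number as a replicate block, 8 in place of 14 genes were higher with BYBX against DMSO and 15 in place of 19 were lower against GV, and 24 in place of 25 were lower in MII with DMSO. Deviations of libraries with the same number correlated at 0.49 and 0.28 between GV and DMSO, -0.60 and -0.35 between DMSO and BYBX, and -0.33 between GV and BYBX, so the numbers were not read as pairs. A pseudocount of 0.1, no filter, no trend and fits of only 2 groups kept each count of called genes within 1.5 times and turned no direction; the cause of the other changes was not tested.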

Other observations

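In the companion list BYBX replicate 1 stood far above BYBX replicate 2 for several genes, which were picked after their values were seen. Pcbp1, a KH-domain binder of C-rich RNA like Hnrnpk, was at 199 and 48.7 FPKM in the 2 libraries with BYBX and at 39.0 to 130 with DMSO. U2af1, the small subunit of the 3′ splice site factor, was at 180 and 62.6 FPKM with BYBX, U2af2, the large subunit, at 10.7 and 2.604, and Snrnp70, a U1 snRNP protein, at 24.3 and 5.50. With BYBX the second replicate of U2af2 and U2af1 lay just above the highest DMSO value (2.36 and 62.2 FPKM), so for these genes the group mean with BYBX rests mostly on 1 library.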
